A study of Mus musculus with 6 samples.

Results

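The peptidylarginine deiminases encoded by Padi1, Padi2, Padi3 and Padi4 were followed across 6 RNA-seq libraries of sorted mouse bone marrow cells. The 4 genes were taken by name from a table of 38924 rows, and 2 of them, Padi2 and Padi4, passed the filter on low values. Padi4 was chosen by its measured RPKM, which had been seen to be high in both groups that carried Evi1. Its differences between groups are therefore given as a description, with no test. Padi6, the remaining gene of the same locus, is given beside the 4.

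All libraries came from C57BL/6 mice that had received bone marrow transduced with a vector, and from cells sorted as GFP-positive, lineage-negative and c-kit-positive. The leukemia group (2 libraries) carried Evi1-GFP and was collected 6 months after transplantation. The preleukemia group (2 libraries) carried Evi1-GFP and was collected at 4 weeks, and the mock group (2 libraries) carried GFP alone and was also collected at 4 weeks. No GFP group at 6 months was part of the comparison, so time after transplantation and leukemia cannot be told apart. The labels do not state whether the 2 libraries of 1 group were made from different mice, so p-values measure only how far these libraries spread, and that spread may be technical. The vector's promoter is not named.

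Peptidylarginine deiminases are calcium-dependent enzymes that convert arginine residues of proteins to citrulline, a reaction that removes a positive charge. PAD4, the product of Padi4, carries a nuclear localization signal and citrullinates histones, and it is best known in neutrophils, whose chromatin it helps to decondense when neutrophil extracellular traps (NETs) are released. PAD2 is the most widely expressed member, found in muscle, brain and myeloid cells, and it too can act in the nucleus and citrullinate histones, while PAD1 and PAD3 are mainly enzymes of the epidermis and hair follicle and PAD6 is an oocyte protein.

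The 5 genes lie together on chromosome 4 in a stretch of 225 kb (GRCm38, chr4:140727355-140952586, gene models of GENCODE M21). Padi6, Padi4, Padi3 and Padi1 are on the minus strand, and Padi2 is on the plus strand at the other end. Padi4 (ENSMUSG00000025330.6) spans chr4:140745865-140774236, and Padi2 (ENSMUSG00000028927.6) spans chr4:140906344-140952586. Padi3 (ENSMUSG00000025328.9) spans chr4:140785365-140810648, and Padi1 (ENSMUSG00000025329.3) spans chr4:140812983-140845778.

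The promoters of the pair that was expressed are shown because they differ in their letters. Each line gives the 250 bases before the RefSeq transcription start (GRCm38.p6), 5′ to 3′ on the strand of the gene. Capitals mark TATAAA in Padi4 (chr4:140774204-140774453, minus strand) and the GC box GGGCGG or its complement in Padi2 (chr4:140906110-140906359, plus strand).
Padi4: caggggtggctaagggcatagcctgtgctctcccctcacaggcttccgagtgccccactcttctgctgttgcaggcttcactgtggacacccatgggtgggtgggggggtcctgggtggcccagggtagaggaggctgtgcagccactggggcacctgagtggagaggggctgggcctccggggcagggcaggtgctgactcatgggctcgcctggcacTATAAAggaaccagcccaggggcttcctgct
Padi2: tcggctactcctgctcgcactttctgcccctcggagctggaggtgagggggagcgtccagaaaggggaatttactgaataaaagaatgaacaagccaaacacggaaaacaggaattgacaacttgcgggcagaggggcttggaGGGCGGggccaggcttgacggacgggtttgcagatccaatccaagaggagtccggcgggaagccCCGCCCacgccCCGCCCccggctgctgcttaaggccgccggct
The Padi4 window holds TATAAA once, with its first base at -31, and 7.59% of 32851 RefSeq promoter windows of the same length hold these letters on the strand of the gene. Padi4 has no GC box on either strand, while Padi2 has 3, starting at -107, -43 and -32, and no TATA box. The GC box, searched on both strands, is in 32.7% of all windows. The Padi4 window has 3 CpG dinucleotides and the Padi2 window has 17, against a median of 6 over all windows. Both RefSeq starts lie inside the GENCODE gene models given above. The last bases of each window, with the TATAAA of Padi4, thus fall within those models, and positions would shift with the GENCODE starts.

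Other motifs were searched on both strands of the 5 windows. AGGAAG, the core bound by ETS factors such as Spi1, occurs once in Padi4, at -9 on the opposite strand, 3 times in Padi6 and in none of the other windows, against 29.5% of all windows. The letters TGTGGT, bound by Runx factors, are in none of the 5 windows and in 14% of all windows. The letters AGATAA, bound by Gata factors, are likewise in none, against 9.99% of all windows. The C/EBP motif TTGCNNAA is in none, against 9.56% of all windows, and the Evi1 motif GACAAGATA is in none, against 0.107% of all windows. The Gata and Evi1 motifs can overlap each other. A match is a run of letters and not a measured site.

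The coding sequences are diverged enough that the abundant genes share only short exact stretches. Padi4 and Padi2 are 62.5% identical over an end-to-end alignment of their coding sequences (1998 and 2019 bases), and Padi4 is 64.6% identical to Padi3 and 64.8% to Padi1. The longest run shared exactly by Padi4 and Padi2 is 30 bases, shown in lower case throughout because every base is shared.
Padi4 and Padi2: ttcaccttcaagtggtggcacatggtgccc
The longest run shared by Padi3 and Padi1 is 63 bases, and that shared by Padi4 and Padi1 is 35 bases. The read length is not given in the sources used here, so reads of weakly expressed Padi1 and Padi3 that belong to a relative cannot be set apart. Padi2 overlaps the antisense gene Gm13031 over 4921 bases, and the library kit does not mark strand by its name. Gm13031 was listed at 0 to 0.206 RPKM.

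Levels are in RPKM, read counts scaled to exon length and to the total of the library, as deposited. Implied totals were 16922992 to 21641740 reads per library, and 10207 to 10551 rows reached 1 RPKM. Mecom, the gene that encodes Evi1, was at 61.7 and 71.5 RPKM in leukemia, 78.0 and 80.1 RPKM in preleukemia, and 0.774 and 0.805 RPKM in mock, in the direction of the labels. Vector transcripts and the endogenous transcript cannot be set apart in that value. Kit, which encodes the sorting antigen c-kit, was at 46.8 to 69.2 RPKM in all 6 libraries. Of the lineage antigens, Cd3e, Cd4 and Cd8a stayed at or below 0.149 RPKM, while Itgam was at 13.7 and 21.7 RPKM in leukemia, 37.1 and 53.2 RPKM in preleukemia, and 4.66 and 4.77 RPKM in mock.

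Padi4 was the most abundant deiminase in every library that carried Evi1 and the second, after Padi2, in both mock libraries. It was at 58.8 and 53.7 RPKM in leukemia (5973 and 5099 implied reads), 44.6 and 52.2 RPKM in preleukemia (3649 and 5461 reads), and 4.14 and 5.48 RPKM in mock (433 and 535 reads). The 4 libraries with Evi1 lay far above the mock libraries. The leukemia values lay just above the preleukemia values, and the values of no groups overlapped. Within counting error, however, the second leukemia library (Poisson interval 52.2 to 55.2 RPKM) overlapped the second preleukemia library (50.8 to 53.6 RPKM). Intervals of the other pairs of leukemia and preleukemia libraries did not overlap. How often other genes separate these groups was not tested. Means were 56.2 ± 3.63 RPKM in leukemia, 48.4 ± 5.37 RPKM in preleukemia and 4.81 ± 0.942 RPKM in mock (SD, n = 2 each).

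The ratio of mean RPKM of Padi4 was 11.7 for leukemia over mock and 10.06 for preleukemia over mock. Between leukemia and preleukemia it was 1.16. On the log2(RPKM + 1) scale the differences were 3.31, 3.09 and 0.22. By level, Padi4 stood at rank 557 and 585 of 38924 rows in leukemia, 892 and 737 in preleukemia, and 7694 and 6690 in mock. In bulk RNA, fewer cells of a type and less RNA per cell cannot be told apart.

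**Figure D1:**
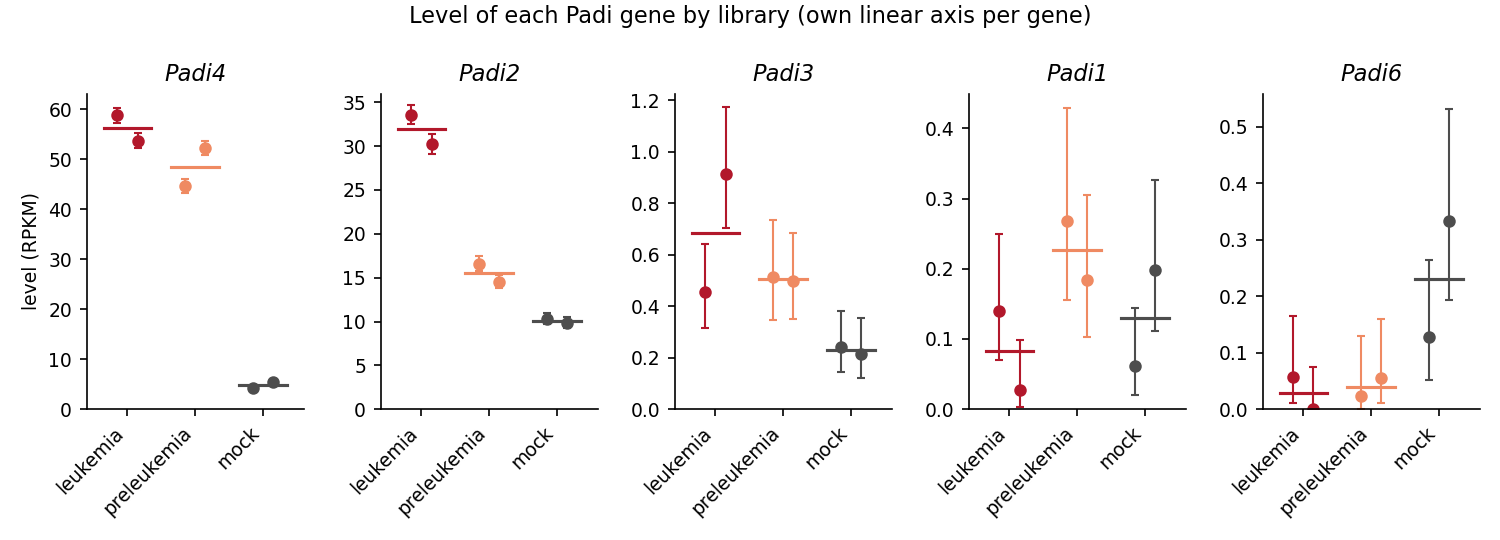
Level of each Padi gene in RPKM, on its own linear axis from 0, in leukemia, preleukemia and mock. Points are libraries with 95% Poisson intervals (counting error only) and bars are the means of 2 libraries. Padi4 lies at 44.6 RPKM or more in every library with Evi1 and at 5.48 RPKM or less in mock, while Padi2 is higher in leukemia than in preleukemia.

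Padi2 followed a graded order instead. Its level was 33.6 and 30.2 RPKM in leukemia (3539 and 2978 implied reads), 16.6 and 14.5 RPKM in preleukemia (1406 and 1578 reads), and 10.3 and 9.83 RPKM in mock (1119 and 996 reads). Leukemia libraries were highest and mock libraries lowest. Means were 31.9 ± 2.38 RPKM in leukemia, 15.6 ± 1.43 RPKM in preleukemia and 10.1 ± 0.350 RPKM in mock (SD, n = 2 each).

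Padi2 rose in all 3 comparisons by limma's test on log2(RPKM + 1), adjusted over 10958 genes by the Benjamini-Hochberg method at 0.05. In leukemia against mock the log2 fold change was 1.57 (95% interval 1.30 to 1.84, adjusted p = 0.000427), a comparison in which 25.6% of genes tested passed and 12.1% passed as higher. In leukemia against preleukemia it was 0.99 (0.72 to 1.26, adjusted p = 0.00321), where 18.3% passed and 5.27% passed as higher. In preleukemia against mock it was 0.58 (0.31 to 0.84, adjusted p = 0.0162), where 19.5% passed and 13.5% passed as higher. This last call was lost without the first preleukemia library (0.49, adjusted p = 0.119) and without the second (0.67, adjusted p = 0.0717).

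Genes passed as higher and as lower in unequal numbers, and the split moved with the scaling of the libraries. Of the genes called in preleukemia against mock, 69.2% were higher, against 59.2% after trimmed-mean scaling and 52.9% after quantile normalization. In leukemia against preleukemia the shares were 28.8%, 42.7% and 50.8%. The median shift over all genes stayed within 0.1 on the log2 scale in each comparison.

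Padi3 and Padi1 stayed below 1 RPKM in every library, failed the filter on low values and were not tested. Padi3 was at 0.456 and 0.915 RPKM in leukemia (33 and 62 implied reads), 0.514 and 0.496 RPKM in preleukemia (30 and 37 reads), and 0.242 and 0.215 RPKM in mock (18 and 15 reads). Both groups with Evi1 lay above mock, and leukemia and preleukemia overlapped. With no filter on low values, limma's adjusted p for Padi3 was 0.115 in leukemia against mock, 0.629 in leukemia against preleukemia and 0.283 in preleukemia against mock.

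Padi1 was at 0.139 and 0.0271 RPKM in leukemia (11 and 2 implied reads), 0.268 and 0.185 RPKM in preleukemia (17 and 15 reads), and 0.0616 and 0.198 RPKM in mock (5 and 15 reads). Its mock values overlapped those of both other groups, and the preleukemia libraries lay above the leukemia libraries. With no filter, limma's adjusted p for Padi1 was 0.700 in leukemia against mock, 0.302 in leukemia against preleukemia and 0.453 in preleukemia against mock. Padi6 had 3 and 0 implied reads in leukemia, 1 and 3 in preleukemia, and 7 and 17 in mock, and 0 reads in the second leukemia library allows up to 0.0603 RPKM. The 6 keratinocyte markers, from the tissue in which PAD1 and PAD3 are best known, summed to 0.308 and 0.194 RPKM in leukemia, 0.376 and 0.646 RPKM in preleukemia, and 0.550 and 0.427 RPKM in mock.

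The makeup of the family turned over between mock and the groups with Evi1. Summed over the 5 genes, the level was 93.1 and 84.8 RPKM in leukemia, 62.0 and 67.5 RPKM in preleukemia, and 14.9 and 16.1 RPKM in mock. Padi4 made up 63.2% and 63.3% of that sum in leukemia, 72.0% and 77.4% in preleukemia, and 27.8% and 34.1% in mock. Padi2 made up 36.1% and 35.6% in leukemia, 26.7% and 21.6% in preleukemia, and 69.3% and 61.2% in mock. The ratio of Padi4 to Padi2 was thus 1.75 and 1.78 in leukemia, 2.69 and 3.59 in preleukemia, and 0.401 and 0.557 in mock. Since Padi4 was chosen for its level, these shares are a description.

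**Figure D2:**
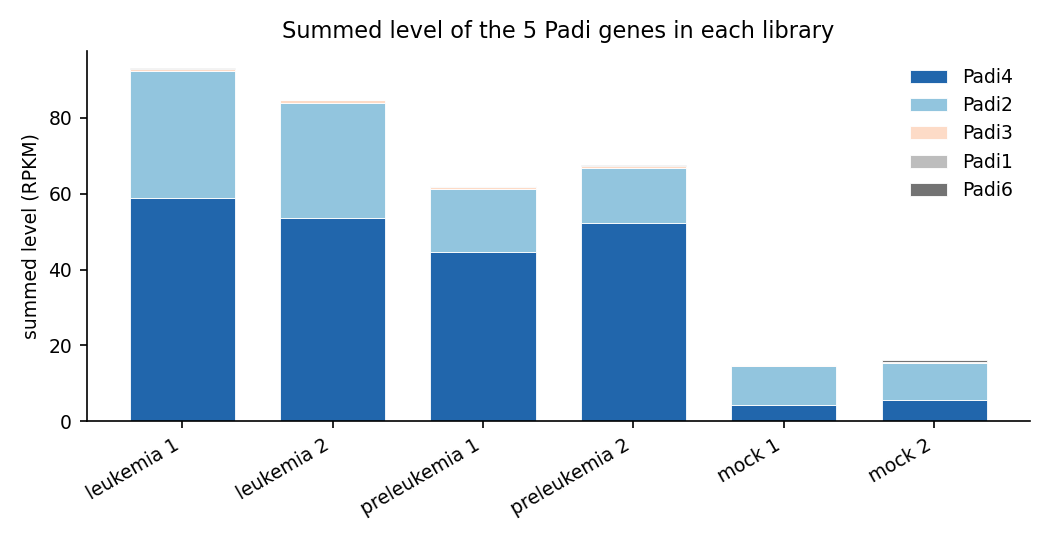
Summed level of the 5 Padi genes in RPKM, stacked by gene, in each library. The sum is 84.8 RPKM or more in leukemia, 62.0 and 67.5 RPKM in preleukemia, and 16.1 RPKM or less in mock, and Padi2 is the larger share in mock only among these 6 libraries.

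Genes whose pattern lay nearest to that of Padi4 were sought among 9902 genes by Euclidean distance over the 6 libraries of log2(RPKM + 1), each gene centred on its own mean. The nearest was Cxcr2, a chemokine receptor of neutrophils (distance 1.08, Pearson r = 0.982 over 6 libraries that fall into 3 groups). Cxcr2 was at 11.5 and 10.8 RPKM in leukemia, 8.94 and 7.07 RPKM in preleukemia, and 1.11 and 0.830 RPKM in mock. Next came Ldhb, a subunit of lactate dehydrogenase (distance 1.21), Apobr, a lipoprotein receptor (1.22), Plekhh2 (1.23) and Fbp1, an enzyme of gluconeogenesis (1.31). Pglyrp2, a peptidoglycan amidase (1.36), Scd3, a fatty acid desaturase (1.37), and Ltb, which encodes lymphotoxin beta (1.42), completed the 8.

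These 8 genes were like Padi4 in standing above mock in both groups, but they differed in size and in the step between the groups with Evi1. Apobr was at 13.8 and 14.0 RPKM in leukemia, 9.88 and 12.6 RPKM in preleukemia, and 1.90 and 2.13 RPKM in mock (r = 0.996). Fbp1 was at 59.9 and 53.9 RPKM in leukemia, 19.5 and 21.3 RPKM in preleukemia, and 2.07 and 2.01 RPKM in mock, with a larger step between leukemia and preleukemia than Padi4. Ldhb stepped the other way, at 37.0 and 41.7 RPKM in leukemia, 78.3 and 76.2 RPKM in preleukemia, and 4.60 and 5.23 RPKM in mock.

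Genes near the pattern of Padi2 lay at smaller distances. The distance is not scaled for the size of a change, and Padi2 changed less than Padi4 against mock, so the distances of the 2 sets are not comparable. The nearest was Ajuba, a LIM-domain adaptor (distance 0.12, r = 0.998). Ajuba was at 4.86 and 4.23 RPKM in leukemia, 2.19 and 1.70 RPKM in preleukemia, and 0.924 and 0.975 RPKM in mock. Afap1l1 (0.13), Gdpd3 (0.23) and Spns2, a transporter of sphingosine 1-phosphate (0.24), followed. Spns2 was at 85.9 and 75.4 RPKM in leukemia, 48.5 and 36.1 RPKM in preleukemia, and 30.6 and 29.2 RPKM in mock.

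Genes around the Padi locus were called about as often as genes overall in leukemia against mock. Of 10 protein-coding genes within 250 kb, 8 passed the filter, and in preleukemia against mock 0 passed limma's test (19.5% of all genes tested passed there), while 1 higher and 1 lower gene had an unadjusted p under 0.05. In leukemia against mock 1 passed as higher and 1 as lower, beside 12.1% and 13.5% of all genes tested. Rcc2, 4.1 kb from Padi6, was at 184 and 169 RPKM in leukemia, 152 and 140 RPKM in preleukemia, and 170 and 152 RPKM in mock. Atp13a2, a lysosomal transporter gene 34.3 kb from Padi2, was at 75.3 and 71.2 RPKM in leukemia, 32.3 and 28.6 RPKM in preleukemia, and 25.9 and 25.2 RPKM in mock. Atp13a2 rose in leukemia against mock (log2 fold change 1.48, limma adjusted p = 0.000338) and against preleukemia (1.24, adjusted p = 0.00150).
Necap2 was lower in leukemia against mock (-0.47, adjusted p = 0.0347), at 14.2 and 14.3 RPKM in leukemia, 14.3 and 16.5 RPKM in preleukemia, and 21.8 and 18.4 RPKM in mock. The Necap2 call was lost when the first mock library (adjusted p = 0.0580), the first or second leukemia library (0.151 and 0.159) or the first or second preleukemia library (0.0649 and 0.0653) was left out.

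**Figure D3:**
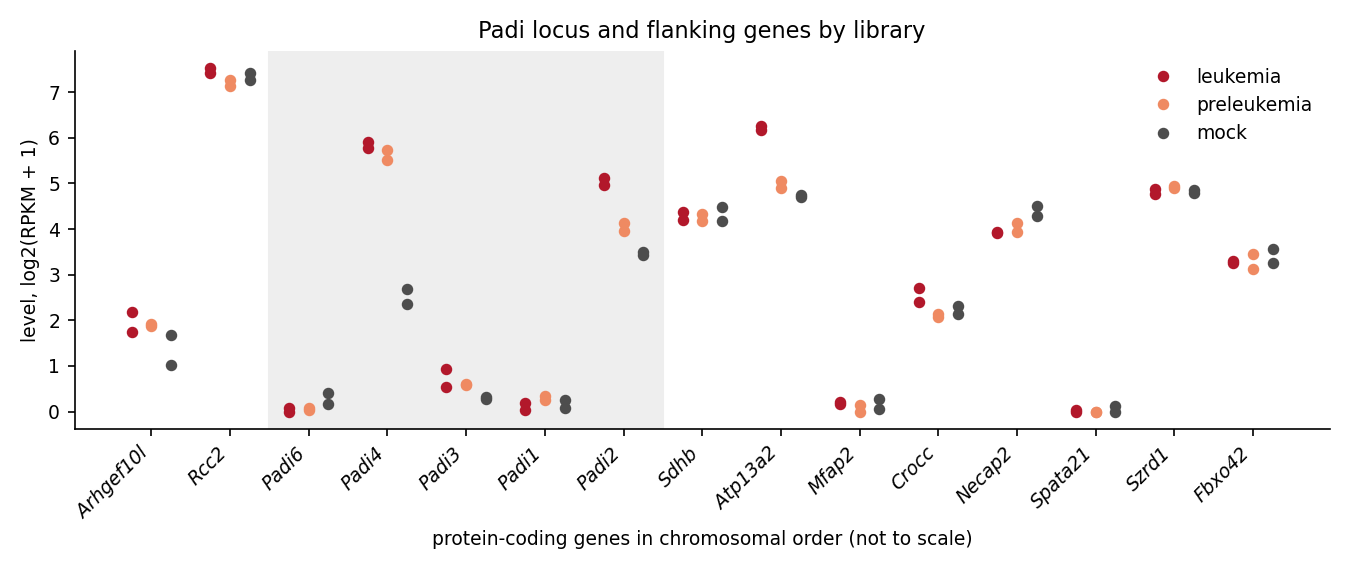
Level, log2(RPKM + 1), of the Padi genes (shaded) and the protein-coding genes within 250 kb, in chromosomal order and not to scale, 1 point per library in leukemia, preleukemia and mock. Padi4, Padi2 and Atp13a2 are the genes at which leukemia stands more than 1 log2 unit above mock, while Rcc2, Sdhb and Szrd1 lie close together in the 3 groups.

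Padi4 is best known from the neutrophil lineage, so neutrophil markers are given beside it. The 10 late neutrophil markers summed to 476 and 741 RPKM in leukemia, 3767 and 7340 RPKM in preleukemia, and 47.7 and 40.7 RPKM in mock. The 6 secondary granule markers summed to 118 and 298 RPKM in leukemia, 504 and 1783 RPKM in preleukemia, and 11.0 and 8.74 RPKM in mock. Chi3l3 made up most of the secondary sum in leukemia, at 102 and 224 RPKM, against 0.397 and 0.788 RPKM in mock. Ltf and Camp did not pass limma's test in leukemia against mock (0.36 and 0.32, adjusted p = 0.798 and 0.853). Of the 6, 2 passed as higher there, Chi3l3 and Lcn2. The late and secondary sums were highest in preleukemia. Padi4 levels in leukemia and preleukemia lay close together. S100a8 and S100a9 made up most of the late sum, and without them the other 8 genes summed to 76.2 and 84.4 RPKM in leukemia, 114 and 174 RPKM in preleukemia, and 39.5 and 30.04 RPKM in mock. Cxcr2 of the late list did not follow the sum, with a log2 fold change of 0.44 in leukemia against preleukemia that did not pass limma's test (adjusted p = 0.0920). For both full sums the second preleukemia library stood well above the first, while its Padi4 level was 52.2 RPKM against 44.6 RPKM in the first.

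The 5 primary granule markers summed to 1665 and 1643 RPKM in leukemia, 4627 and 5024 RPKM in preleukemia, and 3505 and 2589 RPKM in mock, so that leukemia was lowest. In preleukemia against mock, 4 of 5 primary, 5 of 6 secondary and 6 of 9 tested late markers rose by limma's test, where 13.5% of all genes tested passed as higher. Of the markers that rose, Ltf of the secondary list and Mmp9 of the late list passed the filter on low values only through the preleukemia libraries. Primary markers that rose numbered 1 without either preleukemia library and 2 without the second mock library, and secondary markers that rose numbered 3 without the second preleukemia library. In leukemia against mock the counts higher were 0, 2 and 5 and the counts lower were 4, 0 and 0, beside 12.1% of all genes tested higher and 13.5% lower. Primary markers that fell numbered 1 without the first leukemia library, 2 without the second and 2 without the first mock library. Secondary markers that rose numbered 1 without either mock library or the second leukemia library, and 2 late markers fell without either preleukemia library. At an unadjusted p under 0.05, 0 primary markers were higher and 5 were lower in that comparison.

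Among the late markers, S100a8 was at 227 and 373 RPKM in leukemia, 2179 and 4117 RPKM in preleukemia, and 6.25 and 5.68 RPKM in mock. Ly6g, a surface protein of mature mouse neutrophils, was at 0 and 0.151 RPKM in leukemia, 0.352 and 8.53 RPKM in preleukemia, and 1.51 and 0.736 RPKM in mock. Of the late markers, 4 and 1 were listed at 0 in leukemia, 1 and 0 in preleukemia, and 1 and 1 in mock. The part of these cells in the level of Padi4 was not tested.

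**Figure D4:**
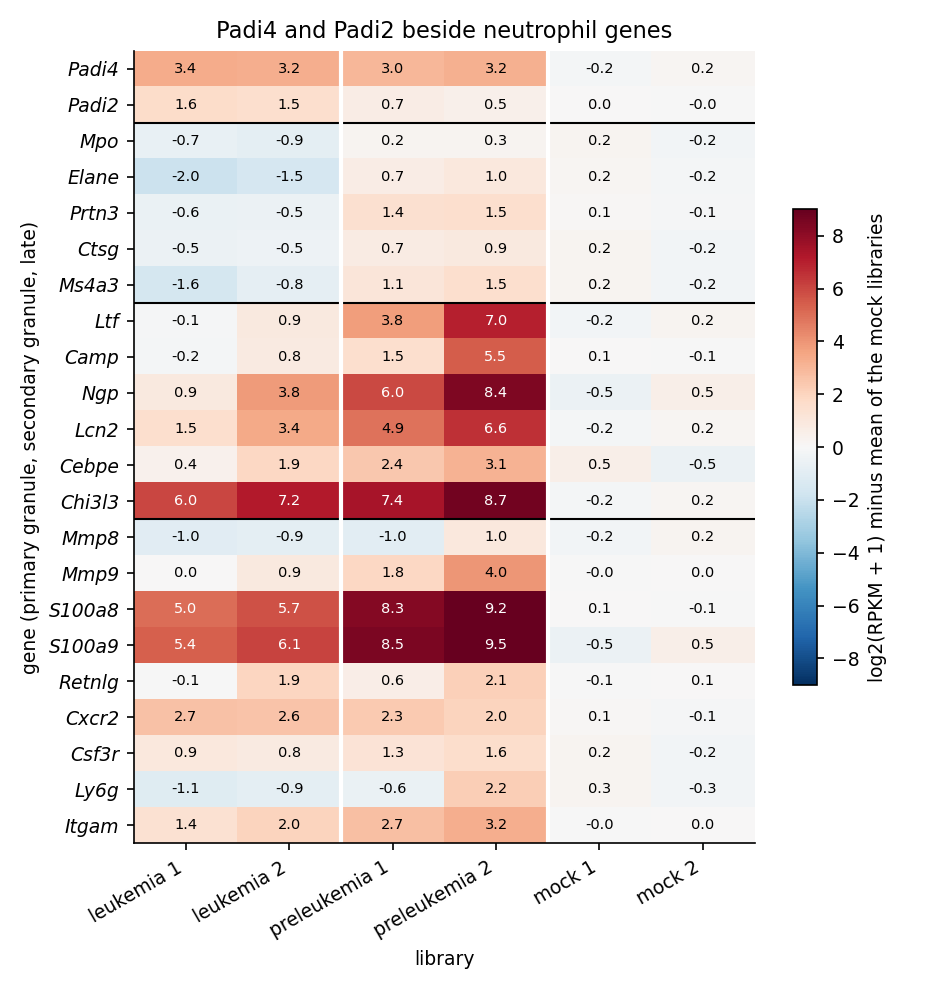
Difference of log2(RPKM + 1) from the mean of the 2 mock libraries for Padi4, Padi2 and the tested neutrophil markers (rows, split into primary granule, secondary granule and late), in each library (columns). Padi4 holds a near-even level over the 4 libraries with Evi1, while S100a8, S100a9, Ltf and Ngp, named after their values were seen, are highest in the second preleukemia library and lower in leukemia. Cxcr2, a late marker, does not follow them, at 2.63 above mock in leukemia and 2.19 in preleukemia.

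Other marker sums moved beside Padi2, which was highest in leukemia. The 9 erythroid markers in the table summed to 29.7 and 38.6 RPKM in leukemia, 224 and 144 RPKM in preleukemia, and 401 and 184 RPKM in mock. The 10 monocyte and macrophage markers summed to 396 and 447 RPKM in leukemia, 573 and 598 RPKM in preleukemia, and 438 and 659 RPKM in mock, with overlap between leukemia and mock. That sum joins genes that ran in opposite orders. Ly6c2 was at 5.68 and 34.8 RPKM in leukemia, 264 and 301 RPKM in preleukemia, and 277 and 390 RPKM in mock. F13a1 was at 340 and 364 RPKM in leukemia, 264 and 248 RPKM in preleukemia, and 95.3 and 150 RPKM in mock, the same order of group means as Padi2, though its difference between leukemia and preleukemia did not pass limma's test (0.46, adjusted p = 0.164). Without Ly6c2 the other 9 markers summed to 391 and 412 RPKM in leukemia, 309 and 297 RPKM in preleukemia, and 160 and 268 RPKM in mock. F13a1 made up most of that remaining sum in every library. Of the 10 markers, 9 were tested, and 1 (F13a1) rose and 4 fell by limma's test in leukemia against mock. Over all genes tested, 12.1% passed as higher and 13.5% as lower there. The 8 B-lymphoid markers summed to 12.5 and 11.9 RPKM in leukemia, 17.9 and 19.6 RPKM in preleukemia, and 41.3 and 43.7 RPKM in mock. Their part in the level of Padi2 was not tested.

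Several genes that act with PAD4 in NET release were higher in preleukemia than in the other groups. Of 15 NET formation genes, all tested, 6 rose and 1 fell in preleukemia against mock, with a median log2 fold change of 0.37, against 0.05 over all genes tested. Over all genes tested, 13.5% passed as higher and 6.02% as lower in that comparison. Prkca, the gene that fell, reached 1 RPKM only in the mock libraries (1.46 and 1.72 RPKM), so it could be called only as lower against mock. Without the second preleukemia library 3 rose, and the single gene that fell, Prkca, was not called without either preleukemia library. Against mock, 2 rose and 3 fell in leukemia (12.1% and 13.5% of all genes tested), 1 rose without the second leukemia library, and 5 fell without the second mock library. Between leukemia and preleukemia 0 rose (also 0 at an unadjusted p under 0.05 by limma) and 6 fell, a comparison in which 13% of all genes tested passed as lower, with 3, 2 and 2 falling without the first preleukemia, second preleukemia and first leukemia library.

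Ncf1, a cytosolic subunit of the phagocyte NADPH oxidase, was at 50.8 and 69.6 RPKM in leukemia, 101 and 141 RPKM in preleukemia, and 26.0 and 30.4 RPKM in mock. Its log2 fold change in preleukemia against mock was 2.05 (limma adjusted p = 0.00191). Cyba, a membrane subunit of the same oxidase, was at 24.7 and 27.1 RPKM in leukemia, 59.2 and 82.1 RPKM in preleukemia, and 19.1 and 24.7 RPKM in mock, and rose by 1.64 in preleukemia against mock (limma adjusted p = 0.00284). Preleukemia stood above the other groups for both genes.

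Cybb, the catalytic subunit, was at 4.02 and 15.6 RPKM in leukemia, 33.4 and 60.7 RPKM in preleukemia, and 5.32 and 11.2 RPKM in mock. Its rise of 2.39 in preleukemia against mock (limma adjusted p = 0.0352) was lost without the first mock library (adjusted p = 0.0887) and without the first or second preleukemia library (0.0833 and 0.200). Elane, which encodes the neutrophil elastase that cuts histones during NET release, was at 156 and 207 RPKM in leukemia, 972 and 1176 RPKM in preleukemia, and 702 and 525 RPKM in mock. It fell in leukemia against mock (-1.75, limma adjusted p = 0.00203). Leukemia was thus lowest for Elane, and a tie between its level and that of Padi4 was not tested. Gsdmd, of the same list, was at 33.5 and 37.5 RPKM in leukemia and 37.9 and 44.6 RPKM in preleukemia. In mock it was at 19.9 and 19.4 RPKM. Gsdmd rose in preleukemia against mock (1.03, limma adjusted p = 0.00284) and in leukemia against mock (0.82, adjusted p = 0.00404). Its difference in leukemia against preleukemia did not pass (-0.21, adjusted p = 0.258).

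Mpo, the myeloperoxidase of primary granules, was at 967 and 851 RPKM in leukemia, 1857 and 1874 RPKM in preleukemia, and 1863 and 1325 RPKM in mock. It was lower in leukemia than in preleukemia (-1.04, limma adjusted p = 0.0119) and than in mock (-0.79, adjusted p = 0.0219). The first of these calls was lost without each preleukemia library (0.0622 and 0.0795) and each leukemia library (0.0593 and 0.0693), and the second without the first mock library (0.0692) and each leukemia library (0.0700 and 0.128).

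Receptors whose ligands trigger NET release included a subset that rose against mock in each group with Evi1. Of 11 receptors, 9 were tested, and 5 rose and 0 fell in preleukemia against mock (1 lower at an unadjusted p under 0.05 by limma, and 2 fell without the first mock library and 1 without either leukemia library). The median log2 fold change was 1.21, and 13.5% of all genes tested passed as higher and 6.02% as lower. Leukemia against mock gave 4 that rose and 2 that fell (12.1% and 13.5% of all genes tested), with 2 rising without either leukemia library and 1 falling without the second mock or the first leukemia library. Between leukemia and preleukemia 0 rose by limma's test (1 at an unadjusted p under 0.05, and 1 without either mock library) and 2 fell (1 without the second preleukemia or the first leukemia library), beside 5.27% and 13% of all genes tested.

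Cxcr2, with the values given above, rose in preleukemia against mock (2.19, limma adjusted p = 0.000632) and in leukemia against mock (2.63, adjusted p = 0.000234), but it also stands among the genes chosen for likeness to Padi4. Itgam, the alpha chain of the integrin Mac-1, rose by 2.99 in preleukemia against mock (limma adjusted p = 0.000956) and by 1.68 in leukemia against mock (adjusted p = 0.00414). Tlr4, the lipopolysaccharide receptor, was at 1.19 and 1.25 RPKM in leukemia, 4.00 and 6.12 RPKM in preleukemia, and 0.816 and 0.686 RPKM in mock, and rose in preleukemia against mock (1.77, adjusted p = 0.00258). Fcgr3, a receptor for IgG, was at 1.21 and 5.80 RPKM in leukemia, 7.59 and 7.96 RPKM in preleukemia, and 23.6 and 18.0 RPKM in mock.

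Deiminases need calcium, and 15 of 16 genes of calcium supply were tested. Of these, 5 rose and 1 fell in preleukemia against mock (13.5% and 6.02% of all genes tested), while 9 rose without the first mock library, 3 without the first and 2 without the second preleukemia library, and 0 fell without either preleukemia library. Leukemia against mock gave 3 that rose and 2 that fell (12.1% and 13.5% of all genes tested), with 1 rising without the first leukemia library and 1 falling without either leukemia library. Leukemia against preleukemia gave 0 that rose by limma's test (0 also at an unadjusted p under 0.05) and 4 that fell (5.27% and 13% of all genes tested), with 0 falling without any 1 of the 4 libraries compared and 7 without either mock library. Plcb2, a phospholipase C that makes the calcium-releasing messenger IP3, was at 49.7 and 62.1 RPKM in leukemia, 71.4 and 80.0 RPKM in preleukemia, and 28.7 and 23.0 RPKM in mock. It rose in preleukemia against mock (1.52, limma adjusted p = 0.00194) and in leukemia against mock (1.08, adjusted p = 0.00409).

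Orai1, the pore of the store-operated calcium channel, was at 16.4 and 15.0 RPKM in leukemia, 19.2 and 21.7 RPKM in preleukemia, and 9.70 and 9.40 RPKM in mock. It rose in preleukemia against mock (1.02, limma adjusted p = 0.00250) and in leukemia against mock (0.66, adjusted p = 0.00742), and the second call was lost without the first leukemia library (0.0648). Itpr2, an IP3 receptor, was at 0.0918 and 0.226 RPKM in leukemia, 0.342 and 0.356 RPKM in preleukemia, and 1.64 and 2.25 RPKM in mock. Its log2 difference in leukemia against mock was -1.34. Itpr2 reached 1 RPKM only in the mock libraries, so it could be called only as lower against mock. It is among the genes counted above as falling against mock.

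Protein arginine methyltransferases act on the same residue as deiminases. Of 9 tested, 0 rose (0 also at an unadjusted p under 0.05 by limma) and 1 fell in preleukemia against mock, and likewise in leukemia against mock. These counts stand beside 13.5% higher and 6.02% lower in preleukemia against mock, and 12.1% and 13.5% in leukemia against mock, over all genes tested. Between leukemia and preleukemia 0 passed limma's test (2 higher at an unadjusted p under 0.05, and 1 rose without either mock library). Left-out libraries changed these counts: in preleukemia against mock 0 fell without either preleukemia library and 2 fell without the second mock library, and in leukemia against mock 0 fell without the first leukemia library. Prmt1, the main enzyme of the family, was at 49.3 and 41.8 RPKM in leukemia, 42.6 and 42.1 RPKM in preleukemia, and 51.6 and 53.6 RPKM in mock (preleukemia against mock -0.31, limma adjusted p = 0.0908). Carm1 was at 18.7 and 17.1 RPKM in leukemia, 14.4 and 12.5 RPKM in preleukemia, and 19.3 and 16.8 RPKM in mock, and its difference in preleukemia against mock (-0.40, adjusted p = 0.0640) passed without the second mock library (0.0448) and after trimmed-mean scaling (0.0321).

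Nuclear partners and substrates of PAD4 were called in both directions, in leukemia against mock at shares near those over all genes. Of 18 genes, all tested, 4 rose and 1 fell in preleukemia against mock (13.5% and 6.02% of all genes tested), and 3 rose and 3 fell in leukemia against mock (12.1% and 13.5%). Between leukemia and preleukemia 2 rose and 3 fell (5.27% and 13%), with 0 rising without any 1 of the 4 libraries compared, 0 falling without the first library of either group and 1 without the second of either. The counts in preleukemia against mock moved: 1 rose without either preleukemia or either leukemia library and 2 without the second mock library, and 3 and 2 fell without the first and second mock library. For leukemia against mock 5 rose without the first mock library. Median log2 fold changes were -0.11 in leukemia against mock and -0.04 in preleukemia against mock, against -0.04 and 0.05 over all genes tested.

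H1f0, a linker histone, was at 35.7 and 35.9 RPKM in leukemia, 29.9 and 25.2 RPKM in preleukemia, and 15.0 and 15.6 RPKM in mock. It rose in leukemia against mock (1.18, limma adjusted p = 0.00110) and in preleukemia against mock (0.80, adjusted p = 0.00523). Dnmt3a, a DNA methyltransferase citrullinated by PAD4, was at 14.0 and 13.7 RPKM in leukemia, 10.1 and 9.03 RPKM in preleukemia, and 6.98 and 6.22 RPKM in mock, and rose in leukemia against mock (0.97, adjusted p = 0.00222). The group means of both genes followed the order leukemia, preleukemia, mock. For H1f0 the step between leukemia and preleukemia did not pass limma's test (0.37, adjusted p = 0.0621). For Dnmt3a leukemia against preleukemia (0.49, adjusted p = 0.0295) and preleukemia against mock (0.48, adjusted p = 0.0314) passed. Both Dnmt3a calls were lost with no filter on low values (limma adjusted p = 0.0546 and 0.0550). The call in leukemia against preleukemia was also lost without any 1 of the 4 libraries compared (log2 fold change 0.42 to 0.57). The call in preleukemia against mock was also lost without either preleukemia library (0.40 and 0.55), the second mock library (0.40) or either leukemia library (0.48). It was lost too in the fit of the 4 libraries compared (limma adjusted p = 0.0828) and with array weights (0.0618).

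Tal1, a transcription factor of blood stem and erythroid cells reported to recruit PAD4, was at 1.96 and 2.58 RPKM in leukemia, 13.5 and 10.1 RPKM in preleukemia, and 21.2 and 10.9 RPKM in mock. It fell in leukemia against mock (-2.32, limma adjusted p = 0.00293), and the erythroid markers given above were also lowest in leukemia. Lmna, which encodes lamins A and C, was at 0.0560 and 0.168 RPKM in leukemia, 1.25 and 1.14 RPKM in preleukemia, and 5.24 and 8.66 RPKM in mock. It fell in leukemia against mock (-2.81, adjusted p = 0.000616) and in preleukemia against mock (-1.82, adjusted p = 0.00357).

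Among 11 other known substrates of deimination, 6 were tested. In preleukemia against mock 3 rose and 1 fell (13.5% and 6.02% of all genes tested), with 1 rising without the second preleukemia library and 0 falling without either preleukemia library. Leukemia against mock gave 1 that rose and 2 that fell (12.1% and 13.5%), with 0 rising without the second mock or either leukemia library and 1 falling without the second leukemia library. Hspa5, a chaperone of the endoplasmic reticulum, was at 96.1 and 106 RPKM in leukemia, 222 and 251 RPKM in preleukemia, and 229 and 269 RPKM in mock, and fell in leukemia against mock (-1.29, limma adjusted p = 0.00117). Vim, the intermediate filament protein vimentin and a substrate known from rheumatoid arthritis, was at 123 and 112 RPKM in leukemia, 128 and 132 RPKM in preleukemia, and 191 and 266 RPKM in mock. Its fall in leukemia against mock (-0.93, adjusted p = 0.00860) was lost without the second leukemia library (0.0608).

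Free citrulline is handled by other enzymes, of which 4 of 12 listed genes were tested. Among them 1 rose and 2 fell in leukemia against mock (12.1% and 13.5% of all genes tested), and in preleukemia against mock 0 rose (0 also at an unadjusted p under 0.05 by limma) and 3 fell (13.5% and 6.02%). The 3 falls were all lost without either preleukemia library. For leukemia against mock 1 fell without either leukemia library, and 0 rose without any one library other than the first mock library. Ass1, argininosuccinate synthase, which consumes citrulline, was at 10.9 and 8.25 RPKM in leukemia, 28.5 and 24.4 RPKM in preleukemia, and 41.5 and 46.2 RPKM in mock. It fell in leukemia against mock (-2.10, adjusted p = 0.000431) and in leukemia against preleukemia (-1.39, adjusted p = 0.00287), and thus ran in the order opposite to Padi2.

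**Figure D5:**
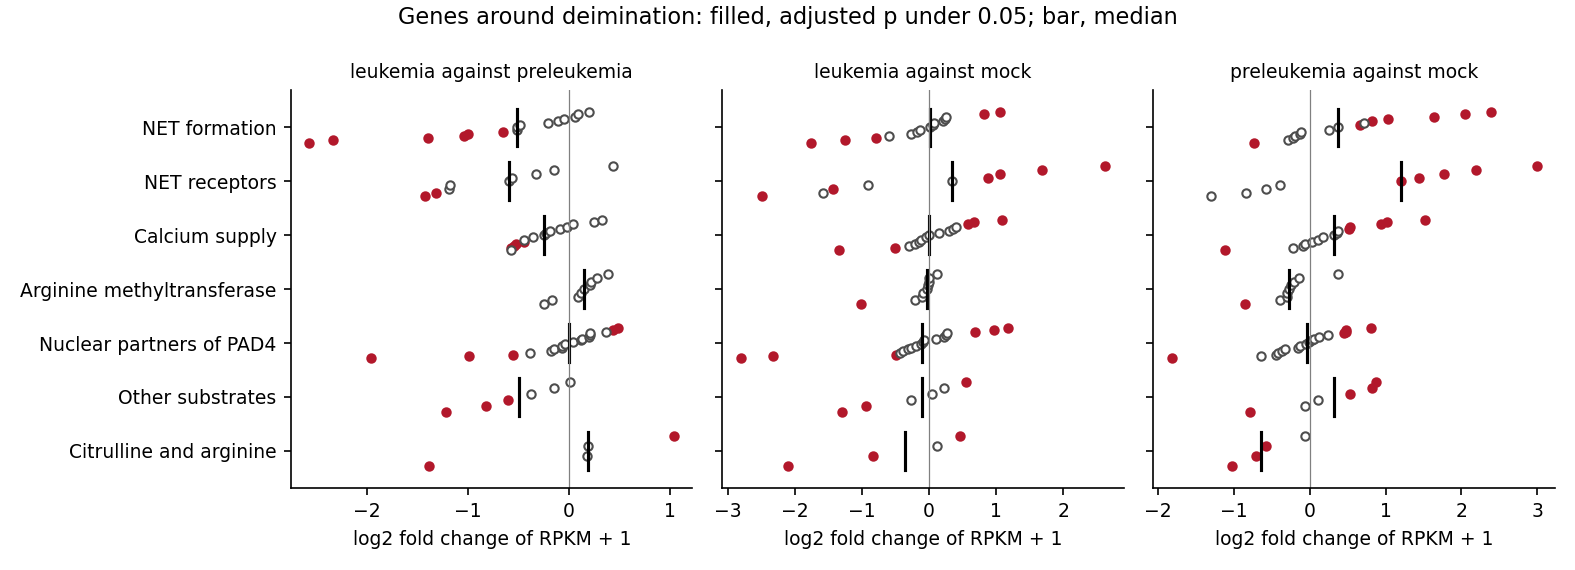
Log2 fold change of RPKM + 1 of each tested gene (points) in 7 lists around deimination (rows) in leukemia against preleukemia, leukemia against mock and preleukemia against mock. Filled points have an adjusted p under 0.05 and black bars are medians. Median changes of the NET formation list are 0.37 in preleukemia against mock and -0.51 in leukemia against preleukemia.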

How the data were processed

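RNA-seq of sorted mouse bone marrow cells was analysed in 3 groups of 2 libraries. Per the labels' protocols, Nucleospin RNA was used for extraction and NEBNext Ultra RNA for library preparation. CASAVA 1.8.2 and GRCm38 are listed, with no role, per the submitters' processing notes. Aligner, counter and annotation: not given in the sources used here. The table deposited by the authors holds 1 RPKM value per gene and library. Multiplied by GENCODE M21 exon lengths, between 64.0% and 65.8% of the values below 20 reads were whole to within 0.02 reads (4% by chance), and this step gave the implied reads and totals. A count test on them was not used, since the other values did not come out whole. Intervals of the implied reads cover counting error only.

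The 10958 genes that reached 1 RPKM in 2 or more of 6 libraries were tested on log2(RPKM + 1) with limma 3.58.1 in R 4.3.3, with group means over all libraries, a spread that follows the mean (3 residual and 3.70 prior degrees of freedom), two-sided, with Benjamini-Hochberg adjustment in each of 3 comparisons and a threshold of 0.05. The script was tested on simulated data. Fold changes on this scale understate changes of low genes. Coding sequences were aligned with Biopython 1.88, and promoter sequences are from RefSeq (GRCm38.p6). Named were the members, Padi6 and Mecom, the 8 and 4 genes nearest to Padi4 and Padi2, neighbours within 250 kb, and from each list up to 4 genes with the largest change against mock plus Mpo, Elane, Cybb, Tal1, Prmt1, Carm1 and Vim, not all of which are reported. Prkca, Gsdmd, S100a8, S100a9, Ly6g, Ngp, Ltf, Camp, Lcn2, Chi3l3, Mmp9, Ly6c2 and F13a1 were named after their values were seen. Members and lists were chosen with earlier results of these data known. Alternatives were other pseudocounts (0.1 and 0.5), filters, scalings, spread estimates, a fit of the libraries compared, array weights, a replicate block and each library left out. Counts of neutrophil markers without each library, and marker sums without S100a8 and S100a9 or without Ly6c2, were chosen after seeing the data.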

Additional observations from a re-analysis of the deposited data

How the results depend on the processing

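Padi2 kept its direction under every alternative run, and its calls in leukemia against mock and against preleukemia were kept in each. In preleukemia against mock its log2 fold change ranged from 0.49 to 0.67 with 1 library left out, and the call was lost without either preleukemia library. The Padi4 differences were 3.31 in preleukemia against mock and 3.53 in leukemia against mock with a pseudocount of 0.1, and 0.37 in leukemia against preleukemia after quantile normalization. Counts of genes past the threshold were less stable. In preleukemia against mock (2140) it was 1374 when only the 4 libraries of the 2 groups were fitted, 1421 with array weights and 520 to 3873 with 1 library left out. In leukemia against mock (2809) it was 1046 to 3848 with 1 library left out. In leukemia against preleukemia (2006) it was 1302 with no filter, 3428 in the fit of 4 libraries, 3786 with array weights and 430 to 3449 with 1 library left out. Beyond fewer libraries and another set of genes tested, the cause was not tested. Of 672 list counts under an alternative, 548 were within 1.5 times of the count reported and 124 were not. Of 54 differences of Padi1 and Padi3, 46 moved by less than the spread between libraries.

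Replicate numbers did not pair the libraries: deviations of same-numbered libraries correlated at 0.116 (preleukemia and mock), 0.0125 (leukemia and mock) and 0.179 (leukemia and preleukemia) over 10958 genes. With the replicate number as a block, 2118, 2932 and 2060 genes passed in preleukemia against mock, leukemia against mock and leukemia against preleukemia, and Padi2 had log2 fold changes of 0.58, 1.57 and 0.99 (limma adjusted p = 0.0139, 0.000805 and 0.00393). With 2 libraries per group, 1 library left out leaves a lone library that is assumed to vary like the others. Padi1 and Padi6, at 17 implied reads or fewer per library, rest on too few reads for a firm statement on a difference.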
